A study of Mus musculus with 4 samples.

Results

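The genes that encode cohesin and its partners were examined for binding of RAD21, itself a cohesin subunit. The set held 9 autosomal genes of the 21418 autosomal protein-coding genes in the annotation: Smc3, Stag1, Rec8, Nipbl, Pds5a, Pds5b, Wapal, Ctcf and Ctcfl. They were chosen by name and not by any measured value, although earlier results of these data were known. Rad21 was left out because the cells carried added copies of it. A RAD21 site was tied to a gene when it lay within 50 kb of the gene body, and this gave 22 of the 18504 autosomal sites listed in either cell type.

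Cohesin is a ring of SMC1A, SMC3, RAD21 and a STAG protein that encircles DNA. It holds sister chromatids together and, halted by the zinc finger protein CTCF, forms the anchors of chromatin loops. NIPBL loads the ring onto DNA, WAPL (gene Wapal) opens it with the help of PDS5A and PDS5B, REC8 replaces RAD21 in meiosis, and CTCFL (also called BORIS) is a paralog of CTCF found mainly in the testis. The question here is where RAD21 lay at the genes of these proteins.

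RAD21 was mapped by ChIP-seq, the sequencing of immunoprecipitated chromatin, in the mouse embryonic stem cell (ESC) line R1/E at differentiation day 0 and in embryoid bodies (EBs, differentiating cell aggregates grown from them by hanging drop, day 12). All cells carried Rad21 with a GFP tag on a bacterial artificial chromosome besides the untagged gene, in resistant clones sorted for GFP, and a goat antibody to GFP pulled the tagged protein down. For each cell type there was 1 RAD21 library and 1 control, labelled as a goat IgG isotype control although its description reads input DNA. EBs hold several cell types, so a lower signal in fewer cells and in all cells cannot be told apart.

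The RAD21 libraries held 14133430 reads in ESCs and 8006161 in EBs, and the IgG libraries 13002597 and 7067703. With 1 library per group there were no replicates and no test between conditions. Reads were counted within 250 bp of each summit, the point of highest signal in a site, and an EB to ESC ratio compares reads per autosomal read of each library. Exact 95% intervals of ratios are given in parentheses. They cover counting error only and not the variation between cultures. An interval that leaves out 1 is called a difference between these libraries.

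A site counted as holding a CTCF motif when a match to a CTCF matrix lay within 150 bp of its summit. The matrix was learned from these RAD21 sites, starting from a CTCF consensus, and always scored on chromosomes it was not learned from, so it is not an independent CTCF motif. The strict threshold passed 1e-05 of the positions in random sequence, and 0.310% of random windows held a match at it. The sequences here were read from the mouse mm9 genome. They lie under the highest site of a gene or under a site that differed between ESCs and EBs. Such sites were left out when they had no strict match and covered no gene start. The sequences therefore do not show how often such sites held a match. Capitals mark the CTCF match, written along its own strand.
Smc3, 21.3 kb upstream, chr19:53653561-53653634, minus strand: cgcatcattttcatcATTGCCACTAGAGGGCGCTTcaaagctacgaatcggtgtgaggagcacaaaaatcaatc
Smc3, past the gene end, chr19:53723380-53723466, plus strand: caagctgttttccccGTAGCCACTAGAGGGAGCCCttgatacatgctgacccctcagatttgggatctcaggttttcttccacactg
Stag1, upstream site, chr9:100448897-100448955, plus strand: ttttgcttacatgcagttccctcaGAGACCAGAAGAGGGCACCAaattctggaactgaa
Stag1, site past the gene end, chr9:100902645-100902701, minus strand: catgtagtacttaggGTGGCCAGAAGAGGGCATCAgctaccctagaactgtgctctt
Pds5b, site at the N4bp2l2 start, chr5:151468428-151468497, minus strand: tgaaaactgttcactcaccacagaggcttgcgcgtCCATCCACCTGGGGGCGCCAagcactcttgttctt
Ctcf, site within Gfod2, chr8:108238244-108238269, plus strand: cctTCTTCCAGTAGGGGGCGCTGcag
Ctcfl, intronic site, chr2:172933056-172933128, plus strand: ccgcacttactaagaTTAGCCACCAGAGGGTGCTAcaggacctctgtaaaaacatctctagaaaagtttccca

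The 2 Smc3 matches shared the run GCCACTAGAGGG, and the 2 Stag1 matches shared CCAGAAGAGGGCA. The Pds5b match passed only a looser threshold, that of 1e-04 of random positions. Of the 22 sites, 8 held a strict match, and the RAD21 summit lay on the 3′ side of the match centre at 7 of these 8, by a median of 29.5 bp. Sides are read along the strand as printed and would swap on the complementary strand. Over all autosomal sites with a strict match the summit lay on that side at 79.6%, with a median of 46.5 bp. The upstream Stag1 site was the exception, with its summit 18.5 bp to the 5′ side.

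In ESCs 7 of the 9 genes had a RAD21 site within 50 kb, with 17 sites in all, and in EBs 8 of the 9 genes had a site, with 12 sites in all. Over all autosomal protein-coding genes 68.9% had an ESC site and 57.2% an EB site within the same distance. The genes with their flanks spanned 1.83 Mb. They held 9.28 ESC and 6.55 EB sites per Mb, against 6.30 and 4.50 over the autosomes. The autosomal values cover all sequence and not only genes with flanks, so no density particular to these genes is shown. Rec8 had no site in either cell type, and Pds5a had none in ESCs.

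Both lists contained 7 of the sites, which are called shared. They made up 7 of the 17 ESC sites (41.2%, 95% interval 18.4 to 67.1) and 7 of the 12 EB sites (58.3%, 27.7 to 84.8). Of all autosomal sites, 48.6% of those in ESCs and 68.3% of those in EBs were shared, and both values lie within the intervals of the 9 genes. A further 10 sites were listed in ESCs only and 5 in EBs only. A strict CTCF match was held by 7 of the 17 ESC sites and 5 of the 12 EB sites, against 36.4% and 28.7% of all. At the looser threshold, passed by 2.75% of random windows, 15 of the 17 ESC and 10 of the 12 EB sites had a match, against 85.4% and 79.4% of all.

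Of the 22 sites, 11 were intergenic, 7 intronic and 4 exonic, against 54.6%, 41% and 4.42% of all autosomal sites. Within 1 kb of the start of any coding or long noncoding transcript lay 3 of the 22, against 6.47% of all. Inside the gene they were tied to lay 7, against 22.1% of all pairs of a gene and a site within 50 kb. None had its summit within 1 kb of the annotated start of a gene of the set, which 3.46% of all genes did, so that 0 of 9 is near the background. The nearest was the EB site of Pds5a, 1.02 kb into the gene. The map of sites along each gene shows 0 of the 7 shared, 2 of the 10 ESC-only and 5 of the 5 EB-only sites inside the gene bodies. Over all such pairs the shares inside were 20.5% for shared, 20.9% for ESC-only and 29.2% for EB-only sites. The difference between the classes at these genes was noticed in the data and not tested.

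**Figure D1:**
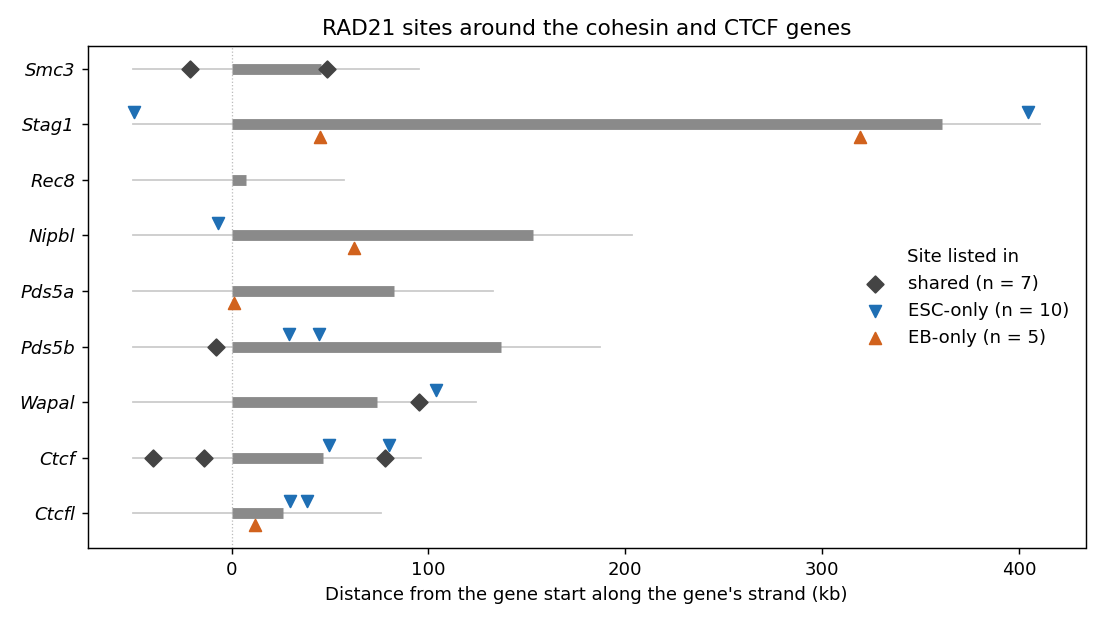
Position of the 22 RAD21 sites along the 9 genes, in kb from the gene start in the direction of transcription. Grey bars are gene bodies and thin lines the 50 kb flanks; diamonds mark the 7 shared sites, triangles pointing down the 10 ESC-only sites and triangles pointing up the 5 EB-only sites, and Rec8 has no mark.

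Smc3, which encodes a rod-shaped core subunit of the ring, had a shared site on each side of the gene (chr19:53674886-53720323) and no other. The site 21.3 kb upstream, at chr19:53653010-53654185, held 46 RAD21 reads in ESCs and 41 in EBs, against 4 and 2 IgG reads. The site at chr19:53723010-53724453, just past the gene end, held 21 RAD21 reads in ESCs and 24 in EBs, against 2 and 1 IgG reads. RAD21 stood well above IgG at both sites in both cell types. Both sites had been called in each cell type for an excess over IgG, so this excess describes the lists. Each site had a strict CTCF match. The matches pointed in different directions, the upstream one against the gene and the other along it.

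The EB to ESC ratio was 1.58 (1.01 to 2.46) at the upstream Smc3 site and 2.02 (1.08 to 3.82) past the gene end. Summed over both sites it was 1.72 (1.20 to 2.46), so that the EB library was the higher of the pair at this gene. Over all autosomal shared sites the ratio was 1.31, which lies within this interval, so no gain particular to Smc3 is shown. The score of a site, −10 times the log10 of its calling p-value, was 344.29 in EBs at the upstream site, the highest of any EB site at the 9 genes. IgG reads at the Smc3 sites were too few to compare.

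Stag1, which encodes an alternative STAG subunit of the ring, was the longest of the genes (chr9:100498217-100858964) and had 4 sites, none of them shared. The ESC-only site 49.3 kb upstream, at chr9:100448527-100449392, held 28 RAD21 reads in ESCs and 4 in EBs, with 6 and 0 IgG reads. The ESC-only site past the gene end, in an intron of a neighbouring gene at chr9:100902422-100903118, held 20 and 3 RAD21 reads, with 5 and 5 IgG reads. Both sites flank the gene, both had a strict match, and at both the EB library was far below the ESC library, with ratios of 0.253 (0.0645 to 0.724) and 0.266 (0.0506 to 0.896). At the site past the gene end EB RAD21 reads did not exceed EB IgG reads, and with scaled IgG reads subtracted the ratio was -0.315.

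The EB-only sites of Stag1 lay within the gene. The first, 45.0 kb into it at chr9:100542995-100543653, was 605 bp from the start of a shorter annotated Stag1 transcript and had no CTCF match at either threshold. It held 6 RAD21 reads in ESCs and 13 in EBs, with 3 and 2 IgG reads, a ratio of 3.84 (1.36 to 12.3). The second, 319.4 kb into the gene, held 11 and 15 RAD21 reads, with 8 and 1 IgG reads, a ratio of 2.42 (1.04 to 5.82). With scaled IgG reads subtracted it was 10.7, but few ESC reads then remained in the denominator. Stag1 thus had its ESC sites at the flanks and its EB sites inside, and the sum over the 4 sites, 0.954 (0.614 to 1.46), hid both.

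Rec8, the meiotic counterpart of RAD21 (chr14:56236874-56244232), was the only gene of the set with no site within 50 kb. The nearest ESC site was 56.2 kb and the nearest EB site 56.5 kb from the gene.

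Nipbl, the gene of the cohesin loader (chr15:8241225-8394463, minus strand), had an ESC-only site 6.78 kb upstream and an EB-only site in an intron 62.0 kb into the gene. The upstream site held 30 RAD21 reads in ESCs and 10 in EBs, with 5 and 2 IgG reads, a ratio of 0.591 (0.258 to 1.24). Although it was listed in ESCs only, the difference between the libraries was therefore not detectable at this depth. The intronic site held 10 and 17 RAD21 reads, with 3 and 2 IgG reads, a ratio of 3.01 (1.30 to 7.36). Its best match scored 20.2 bits, a log2 measure of fit to the matrix, just under the 20.9 bits of the strict threshold.

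Pds5a, which encodes a regulator bound to the ring (chr5:66006499-66089095, minus strand), had a single site, listed in EBs only at chr5:66087592-66088267. It lay over a coding exon near the start of the gene, had a score of 103.49 and no CTCF match at either threshold. It held 6 RAD21 reads in ESCs and 13 in EBs, with 5 and 1 IgG reads, a ratio of 3.84 (1.36 to 12.3). In ESCs RAD21 was 1.10 times IgG there (0.280 to 4.57). With scaled IgG reads subtracted almost no ESC reads remained, so the resulting ratio of 37.7 is no measure of the size of the difference.

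Pds5b, the paralog of Pds5a on the same chromosome (chr5:151476314-151613265), had 3 sites. The shared site 7.83 kb upstream, at chr5:151468116-151468858, covered the start of the neighbouring gene N4bp2l2. It held 19 RAD21 reads in ESCs and 26 in EBs, with 3 and 4 IgG reads, a ratio of 2.42 (1.29 to 4.63). The ESC-only sites 29.2 and 44.2 kb into the gene held 17 and 24 RAD21 reads in ESCs and 8 each in EBs. Their ratios of 0.834 (0.311 to 2.04) and 0.591 (0.229 to 1.36) both include 1. Within 100 bp of the summit the second was 0.221.

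Wapal, the gene of the factor that releases cohesin (chr14:35487114-35561169), had no site in the gene or upstream of it. The shared site 95.1 kb from its start overlapped an exon of the long noncoding RNA gene A930038B10Rik and held 16 RAD21 reads in ESCs and 10 in EBs, a ratio of 1.11 (0.449 to 2.60). The ESC-only site 104.1 kb from the start held 15 and 7 reads, a ratio of 0.827 (0.285 to 2.15). Neither site differed between the libraries beyond counting error.

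Ctcf, which encodes the factor at which cohesin is halted (chr8:108160468-108206822), had 5 ESC sites and 3 of them again in EBs, the most of any gene of the set, and none inside the gene. The shared site 40.0 kb upstream held 41 RAD21 reads in ESCs and 10 in EBs, with 6 and 1 IgG reads. The shared site 13.9 kb upstream held 47 and 17, with 3 and 3 IgG reads, and had the best motif match of the set at 26.1 bits. The shared site 77.8 kb from the start, at chr8:108237862-108238745 in an untranslated exon of Gfod2, held 53 and 21, with 7 and 4 IgG reads. Its score of 284.31 was the highest of any ESC site at the 9 genes.

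The ESC-only sites of Ctcf were weaker. The site 49.3 kb from the start, 389 bp from the start of Rltpr, held 24 RAD21 reads in ESCs and 3 in EBs, with 1 and 1 IgG reads. The site 79.9 kb from the start, also in Gfod2, held 16 and 3, with 3 and 0 IgG reads. All 5 sites thus had fewer EB than ESC reads per autosomal read, with ratios from 0.221 to 0.702, and the sum over them was 0.529 (0.383 to 0.720). The interval left out 1 at the site 40.0 kb upstream, at 0.432 (0.193 to 0.877), and at the site near Rltpr, at 0.221 (0.0427 to 0.729). Within 100 bp of the summit near Rltpr EBs held no RAD21 read.

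The background around Ctcf moved in the same direction. All of chromosome 8 had an EB to ESC ratio of 0.804 in the RAD21 and 0.811 in the IgG libraries. Within 50 kb of Ctcf the IgG ratio was 0.635 (0.563 to 0.715), and RAD21 reads outside the sites had a ratio of 0.826 (0.740 to 0.921). Scaled by the reads of chromosome 8, the ratio over the 5 sites was 0.657 (0.476 to 0.895), and that of the site 40.0 kb upstream was 0.537 (0.240 to 1.09), which includes 1. Divided by the local IgG ratio, the sum became 0.832 (0.602 to 1.13, without the error of the IgG ratio), and that of the site near Rltpr 0.349 (0.0672 to 1.15). The lower EB signal at Ctcf was therefore not called once the local IgG reads were the scale, and the part of the background in it was not tested further.

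Ctcfl (chr2:172919110-172945026, minus strand) had an EB-only site in an intron 11.9 kb into the gene and 2 ESC-only sites past its end. The intronic site, at chr2:172932782-172933570, held 14 RAD21 reads in ESCs and 18 in EBs, with 5 and 1 IgG reads, a ratio of 2.28 (1.07 to 4.95). Its strict match scored 21.0 bits against 20.0 needed on that chromosome. The ESC-only sites held 18 and 20 RAD21 reads in ESCs and 10 and 7 in EBs, with ratios of 0.984 (0.406 to 2.25) and 0.620 (0.222 to 1.53). The first of them had about the same reads per autosomal read in both cell types, although it was listed in ESCs only.

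**Figure D2:**
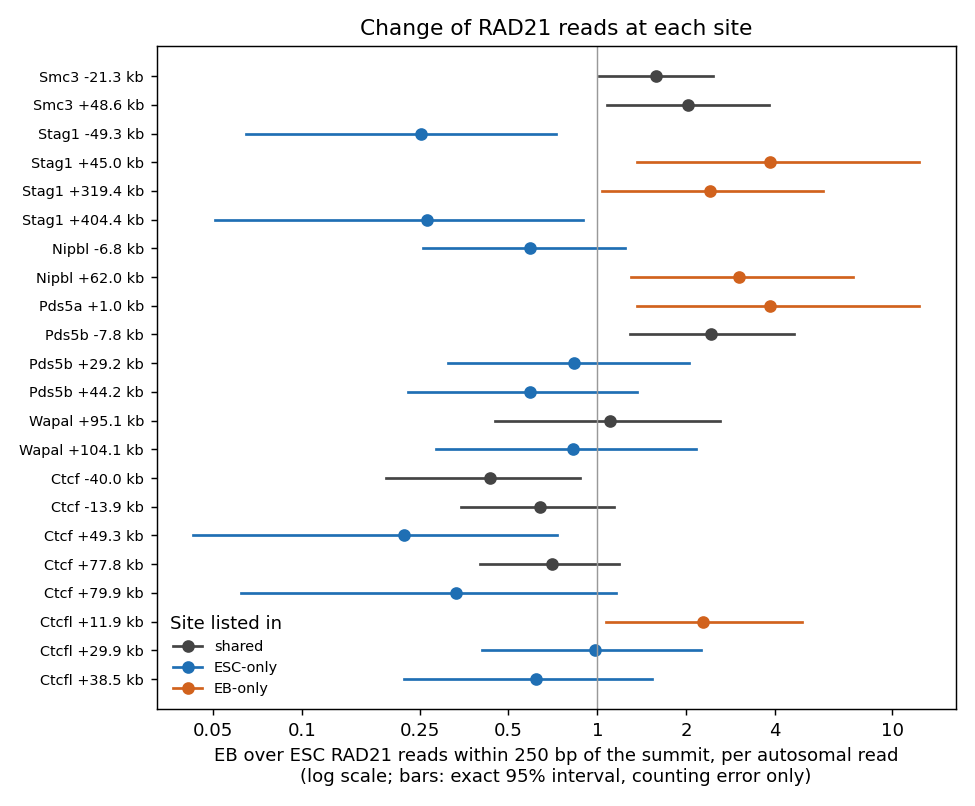
EB to ESC ratio of RAD21 reads at each of the 22 sites, within 250 bp of the summit and per autosomal read, on a log axis. Points are the ratios and bars the exact 95% intervals from counting error, in grey for shared, blue for ESC-only and orange for EB-only sites; the 5 Ctcf points all lie below 1 and both Smc3 points above 1.

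By class, the EB library was lower at 1 of the 7 shared sites and higher at 3, where 1.91% and 20.8% of all autosomal shared sites were lower and higher. The site that was lower is the one upstream of Ctcf, and its call was lost with chromosome 8 as the scale. The median log2 ratio was 0.20 at the 7 sites and 0.38 at all shared sites. Summed over the 7 sites the ratio was 1.09 (0.880 to 1.34), against 1.31 over all shared sites.

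Sites listed in a single cell type had been called on these same reads, so their ratios describe the lists and are no independent measure of them. The EB library was lower at 3 of the 10 ESC-only sites (42% of all ESC-only sites) and higher at 5 of the 5 EB-only sites (64.5% of all). The summed ratios were 0.527 (0.391 to 0.701) and 2.87 (1.97 to 4.21), against 0.436 and 2.85 over all sites of these classes. At the EB-only sites the EB IgG reads, 7 against 24 in ESCs, were also few, at a ratio of 0.530 (0.193 to 1.27), and their part in the calls was not tested.

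The other cell type was not always empty at such sites. Summed over the 10 ESC-only sites, EBs held 63 RAD21 and 18 IgG reads, 3.13 times IgG (1.83 to 5.62), close to the 3.04 of all ESC-only sites. Single sites passed this comparison at 1 of the 10, against 16.5% of all. That was the Ctcfl site 38.5 kb from the start, with 7 RAD21 and 0 IgG reads in EBs. The exact interval of its ratio starts at 1.29, and the call rests on an empty control window. Summed over the 5 EB-only sites, ESCs held 47 RAD21 and 24 IgG reads, 1.80 times IgG (1.08 to 3.08). The value over all EB-only sites, 2.54, lies within this interval. None of the 5 passed alone, against 32.2% of all.

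**Figure D3:**
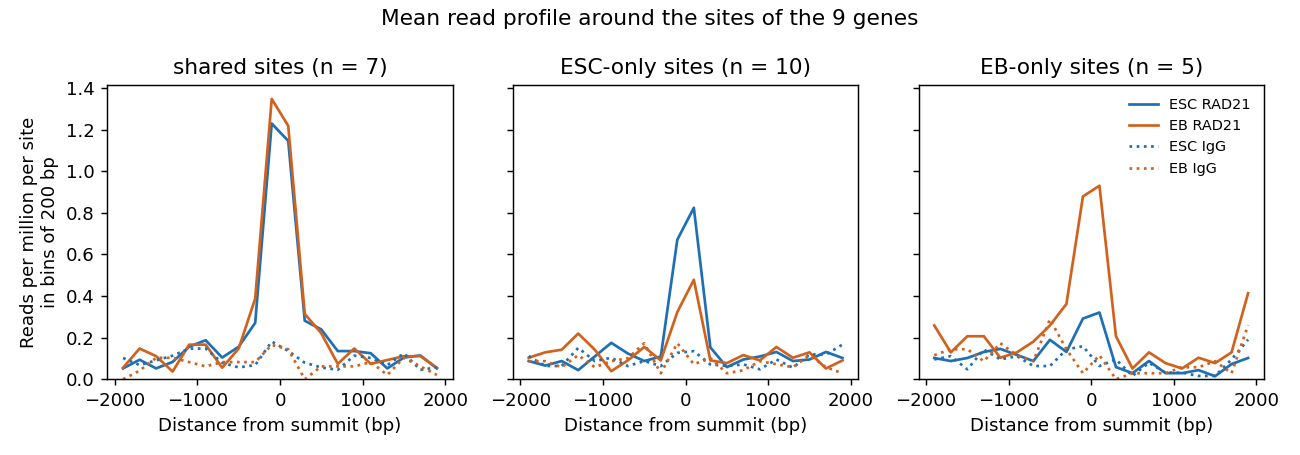
Mean reads per 1000000 autosomal reads per site in bins of 200 bp, against distance from the summit in bp, for the 7 shared, 10 ESC-only and 5 EB-only sites. Solid lines are RAD21 and dotted lines IgG, blue for ESCs and orange for EBs; a smaller peak of the other cell type remains at the sites listed in 1 cell type.

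The read profiles show the same in shape. In the central bins the shared sites had 1.19 reads per 1000000 per site in ESCs and 1.28 in EBs. The ESC-only sites had 0.747 in ESCs and 0.400 in EBs, where EB IgG had 0.123. The EB-only sites had 0.904 in EBs and 0.306 in ESCs, where ESC IgG had 0.111.

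At the starts of the genes the RAD21 signal was low. Within 1 kb of the start, the RAD21 reads ranged from 4 to 14 in ESCs and from 1 to 11 in EBs, and the IgG reads from 0 to 8 and from 0 to 6. In ESCs RAD21 exceeded IgG at 1 of the 9 starts (8.27% of all starts), that of Ctcf, with 8 RAD21 and 0 IgG reads. With 3 reads taken as the limit that a count of 0 allows, that is at least 2.45-fold higher, without the counting error of the 8 reads, and the exact interval of the ratio starts at 1.57. In EBs none of the 9 starts passed, against 8.34% of all.

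Summed over the 9 starts, ESCs held 86 RAD21 and 37 IgG reads, 2.14 times IgG (1.44 to 3.23), and EBs 40 and 18, 1.99 times (1.11 to 3.69). Over all autosomal protein-coding genes the same ratios were 1.26 and 1.44. The ESC ratio fell to 1.39 within 2 kb and to 1.29 with all annotated transcript starts, and the EB ratio to 1.62 and 1.48. An excess at the start of a single gene was thus mostly not detectable at this depth. The reads summed over the 9 starts were above IgG in both cell types, in EBs with the Pds5a window included. The EB interval includes the 1.44 of all starts, so no excess particular to these genes is shown in EBs. The ESC interval leaves out the 1.26 of all starts. In ESCs all 21418 starts held 255610 RAD21 and 186302 IgG reads. The 9 starts thus had fewer reads per start in both ESC libraries, with the larger shortfall in IgG. Their higher ESC ratio therefore shows no gain of RAD21 reads over other starts, and the part of the low IgG reads was not tested. Of the 40 EB RAD21 reads, 11 came from the Pds5a window, which reaches into the called EB-only site. That site was called for an excess over IgG, and the EB sum without Pds5a was not tested.

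The EB library exceeded the ESC library at 1 of the 9 starts (5.69% of all) and was lower at none (3.59% of all). The start that passed was that of Pds5a, with 4 RAD21 reads in ESCs and 11 in EBs, a ratio of 4.87 (1.44 to 21.0), and 4 and 3 IgG reads. Its window reaches into the EB-only site of the gene, so the reads are in part those already described. The sum over the 9 starts gave an EB to ESC ratio of 0.824 (0.552 to 1.21), against 1.07 over all starts. It was 0.394 within 500 bp and 1.30 within 2 kb, so no direction is given.

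**Figure D4:**
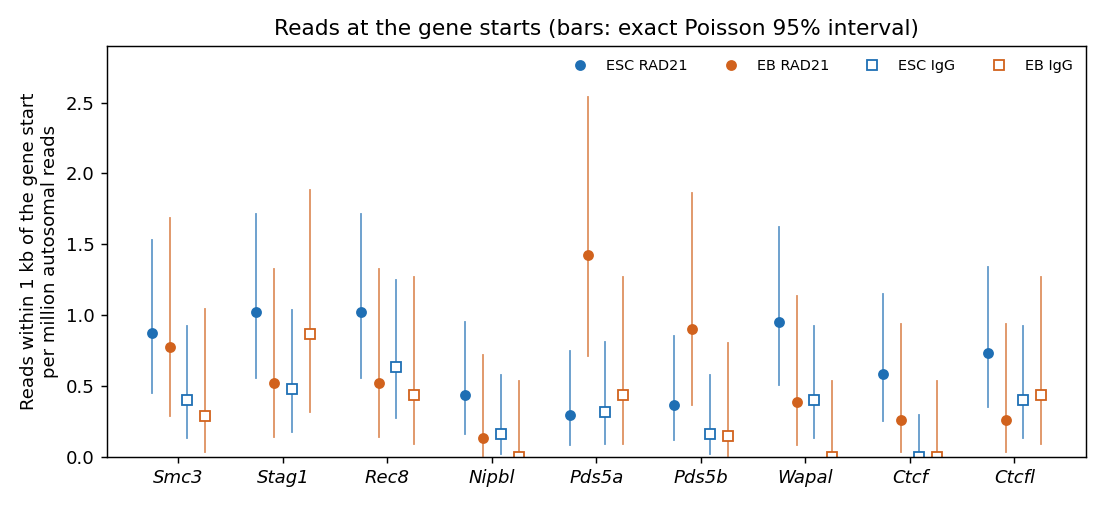
Reads within 1 kb of the annotated start of each of the 9 genes, per 1000000 autosomal reads of the library. Filled circles are RAD21 and open squares IgG, blue for ESCs and orange for EBs, with exact 95% Poisson bars; the EB RAD21 point of Pds5a, at 1.42, is the highest.

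The background around the genes also differed between the cell types. Outside the sites, the IgG reads of the gene with 50 kb on both sides had EB to ESC ratios from 0.637 (0.564 to 0.719) at Ctcf and 0.699 (0.594 to 0.821) at Rec8 to 1.11 (1.02 to 1.20) at Nipbl. The RAD21 reads followed, from 0.791 (0.677 to 0.921) at Ctcfl to 1.17 (1.08 to 1.27) at Nipbl. The plot of both ratios shows that Ctcf, Ctcfl and Rec8 stood below the other 6 genes in both kinds of library. Scaled by local IgG, the higher EB reads at both Smc3 sites, 1.69 (1.08 to 2.63) and 2.16 (1.15 to 4.09), and at the Pds5b upstream site, 2.38 (1.27 to 4.54), still left out 1. These intervals leave out the error of the IgG ratio, and all of them include 1.31, the unscaled ratio over all autosomal shared sites. The local IgG scale was chosen after seeing the data. The EB-only site 319.4 kb into Stag1 then had 2.30 (0.988 to 5.54), which includes 1.

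**Figure D5:**
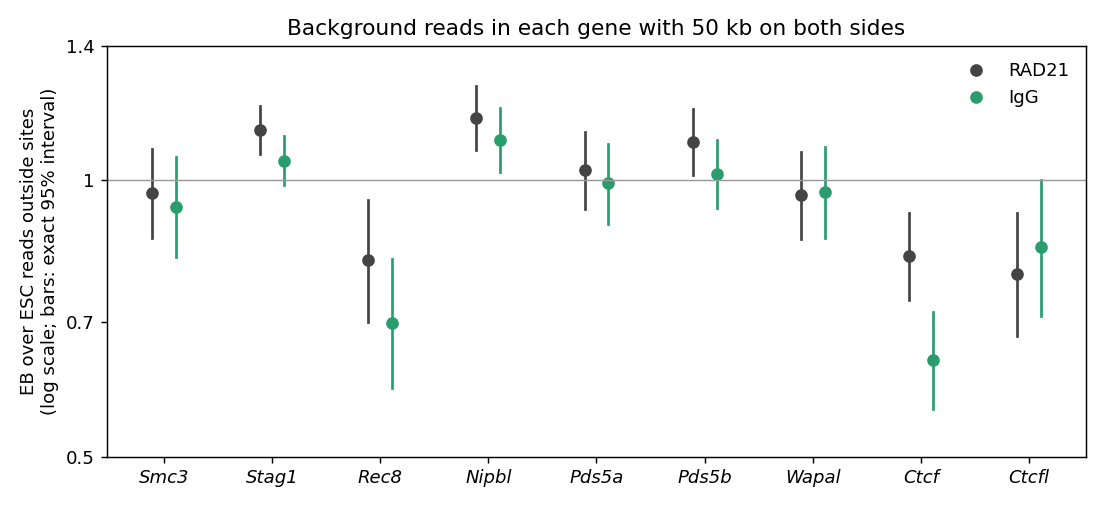
EB to ESC ratio of the reads outside RAD21 sites in each gene with 50 kb on both sides, on a log axis, for the RAD21 (grey) and IgG (green) libraries. Bars are exact 95% intervals from counting error; the IgG ratio at Ctcf, 0.637, is the lowest.

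The remaining autosomal genes of the pathway give the setting. Of 11 other cohesin genes (Smc1b, Stag3, Rad21l, Mau2, Esco1, Esco2, Cdca5, Sgol1, Sgol2, Espl1 and Pttg1), which serve in meiosis, loading, acetylation, protection or cleavage, 9 had an ESC and 5 an EB site within 50 kb, where 68.9% and 57.2% of all genes had them. Of 10 genes of the related condensin and SMC5/6 complexes, 8 had an ESC and 5 an EB site. None of these genes had a site within 1 kb of its start, against 3.46% of all genes.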

How the data were processed

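The authors deposited aligned 35 base reads of the 4 libraries on mouse mm9, 1 read count per line, and MACS site lists called in each cell type against its IgG library. The aligner is not given in the sources used here. Each deposited site has a score (its calling p-value as −10 log10) and each deposited summit a height signal. Neither was scaled between libraries. Summits were placed by their deposited coordinates, and the height entered no result. The files held no repeated positions. The ESC IgG file had 7 broken lines, which were skipped, and the EB IgG file ended on chromosome X, so comparisons used the autosomes, with 6929293 to 13714772 reads per library.

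Reads were moved to the fragment centre (fragment lengths of 205 bp in ESCs and 195 bp in EBs, from strand cross-correlation). An overlap of 1 bp or more made an ESC and an EB site shared, and shared sites were counted at the ESC summit. Ratios had exact conditional binomial intervals and shares exact Clopper-Pearson intervals. Gene positions came from GENCODE vM1. A CTCF matrix of width 20 was learned from the RAD21 sites on odd-numbered chromosomes and scored on the others, and the reverse, in place of a database matrix. Scripts ran in Python 3.11.15 with numpy 2.4.6, scipy 1.17.1 and pandas 2.3.3 and were tested on simulated data.

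The 9 genes and the gene lists were chosen with earlier results of these data known. All 9 genes and their sites are described, and neighbouring genes are named where a site lies within 1 kb of their start or in their exon. Alternatives concerned the distance to a gene, score, overlap, counting window, scaling, pseudocount, background and motif settings.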

Additional observations from a re-analysis of the deposited data

Results flagged for a closer look

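The X-linked genes of the pathway were left out of the comparisons because the EB IgG reads end partway along chromosome X. They are given here because sites lay near them in the deposited lists. These sites had been called for an excess over IgG, so the excess describes the lists. At Hdac8, which encodes the deacetylase that recycles SMC3, the ESC sites 28.5 and 26.3 kb from the gene start had 5.82 (1.71 to 30.7) and 9.80 (3.07 to 50.0) times the IgG reads of ESCs. Both were also listed in EBs. At Med12, a subunit of the Mediator complex that works with NIPBL and cohesin, the ESC sites 11.5 and 55.8 kb from the gene start had 17.5 (2.78 to 725) and 14.7 (3.75 to 127) times the IgG reads. Of these only the second was listed in EBs.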

How the results depend on the processing

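No paired analysis was possible because there was 1 library per group. Of 341 comparisons of 49 results with an alternative, 314 stayed within the interval or within 1.5 times the count, 27 moved beyond it and 0 changed sides of 1 after a call. The cause of these moves was not tested, except that a narrower gene distance, a score limit or a looser motif threshold changes counts by construction. The 17 ESC sites became 11 within 25 kb, 33 within 100 kb, 2 in the gene body alone and 8 with a score of at least 100. The 12 EB sites became 21 within 100 kb, 5 in the gene body and 5 with that score. Genes with an ESC site fell to 1 in the gene body and 4 with that score, and those with an EB site to 4 and 4. The looser motif threshold gave 15 ESC and 10 EB sites with a match. Within 100 bp of the summit RAD21 was 10.6 times IgG at ESC sites, which had been called for such an excess. In ESCs it was 4.96 times IgG at EB-only sites. Subtracting IgG moved the EB to ESC ratio of EB-only sites to 5.79. At the gene starts the ESC to IgG ratio was 1.39 within 2 kb and 1.29 with all transcript starts, and the EB to ESC ratio was 0.394 within 500 bp and 1.30 within 2 kb. The 5 single sites of Stag1, Pds5a, Pds5b and Ctcf that moved are given with their values beside each gene. At Ctcf the ratio divided by local IgG was 0.832. All ratios divided by local IgG, at every gene, and the alternatives that used the EB summit or added 1 read were chosen after seeing the data. At 3 to 53 RAD21 reads per site and library, only large differences between single sites are detectable.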

Other observations

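Among the genes of the condensin and SMC5/6 complexes, which share the SMC fold with cohesin but compact or repair chromosomes, the EB RAD21 library exceeded the ESC library within 1 kb of the start at 3 of 10 genes, against 5.69% of all starts. These were named after their values were seen. Smc2, a condensin core subunit, held 20 RAD21 reads in ESCs and 24 in EBs, a ratio of 2.13 (1.13 to 4.06), with 8 and 8 IgG reads. Smc4, its partner, held 8 and 16, a ratio of 3.54 (1.43 to 9.56), with 13 and 8 IgG reads. Smc6, of the SMC5/6 complex, held 5 and 10, a ratio of 3.54 (1.10 to 13.2), with 8 and 6 IgG reads. Per autosomal read, the EB to ESC ratio of IgG was 1.82 (0.595 to 5.56) at Smc2. It was 1.12 (0.402 to 2.91) at Smc4 and 1.36 (0.390 to 4.48) at Smc6. In ESCs RAD21 was 2.30 (0.969 to 6.03) times IgG at Smc2. It was 0.565 (0.203 to 1.47) times IgG at Smc4 and 0.574 (0.148 to 1.99) at Smc6. The part of IgG in the higher EB reads was not tested. In EBs RAD21 exceeded IgG at the Smc2 start, at 2.69 times, 1 of the 10 against 8.34% of all, while the interval against IgG included 1 at Smc4 and Smc6. None of the 10 starts was lower in EBs, against 3.59% of all, and none held a deposited site. Among the 11 other cohesin genes no start was higher or lower in EBs, and RAD21 exceeded IgG in ESCs at 1, that of Sgol2, a protector of centromeric cohesin, with 16 RAD21 and 3 IgG reads. These counts are near the background of 8.27% of all starts above IgG in ESCs and of 5.69% higher and 3.59% lower in EBs.

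On chromosome X, Stag2, a paralog of Stag1, had an EB site 17.2 kb from its start and no ESC site. It held 4 RAD21 reads in ESCs and 14 in EBs, with 6 and 1 IgG reads. No site lay within 50 kb of Smc1a.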
